A study of Drosophila melanogaster with 12 samples.

Results

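The genes described here are 10 members of the Drosophila JNK pathway and its best-known outputs. They are the TNF-family ligand gene egr, the TNF receptor genes grnd and wgn, the JNK gene bsk, the AP-1 subunit genes Jra and kay, the target genes puc and Ets21C, and the matrix metalloproteinase genes Mmp1 and Mmp2. They were picked by name, with earlier results of these data known. All 10 were found among the 14323 genes of the deposited table, with 36 annotated transcripts between them. Of these genes, 9 passed the expression filter that left 8128 genes for testing, and Mmp2 did not.

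In this pathway Eiger, the product of egr, is presented at the cell surface and binds the receptors Grindelwald and Wengen. Adaptors and a kinase cascade then lead to Basket, the fly JNK, which phosphorylates the Jun protein encoded by Jra. Jun and Fos (kay) pair as the transcription factor AP-1, whose known targets in fly epithelia include the JNK phosphatase gene puc, the ETS factor gene Ets21C and Mmp1. Wounded and tumorous fly epithelia are the classic settings in which these targets are read. Phosphorylation itself was not measured here, only RNA.

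The study asked how adult male accessory glands, a secretory epithelium that makes seminal fluid proteins, respond to growth-driving transgenes, and 12 bulk RNA libraries were deposited, 3 for each of 4 genotypes. All 4 genotypes carried y,w,hs-flp12, Uas-P35, the flip-out driver Act>CD2>gal4 and Uas-GFP(nls), so the caspase inhibitor P35 and nuclear GFP were present in the control too. Nothing else was carried by the control. YkiWT added UAS-yki, the wild-type growth coactivator of the Hippo pathway. The libraries called Yki*+Dp added a UAS-Yki transgene for an activated form of Yki with 3 altered phosphorylation sites, together with UAS-Dp and, on the label, UAS E2F1, which the study describes as poorly induced in that line. Myc+E2f/Dp added UAS-dMyc, UAS E2F1 and UAS-Dp.

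Virgin males were given a heat shock of 20 min at 37°C, kept at 25°C and dissected at day 10, with 80 to 100 glands pooled per library. A heat shock switches the driver on in some cells only, and the actin promoter is active in most tissues, so each library mixes cells with and without the transgenes. The paper reports that the number of expressing cells varied between animals and with the transgenes carried. The share of such cells can therefore differ between genotypes, and it was not measured here. Glands with little or no GFP had been set aside before RNA was made, with GFP levels judged similar by eye, and the replicates are independent pools. In such bulk samples fewer cells of a type and less RNA per cell cannot be told apart.

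Levels are given in TPM (a relative abundance already divided by transcript length) as deposited, always in the order of replicates 1, 2 and 3. TPM keeps no sequencing depth, so the depth of each library is unknown and no counting interval can be given; precision rests on 3 libraries per genotype. Libraries of a genotype correlated at 0.986 to 0.995 over the log2 values of the tested genes, and 6902 to 8120 genes per library reached 1 TPM. Folds were computed after each library was multiplied by a factor that brings the typical gene to the same level, 1.13 to 1.36 in control, 1.16 to 1.26 in YkiWT, 0.928 to 0.989 for Yki*+Dp, 0.645 to 0.776 for Myc+E2f/Dp. Without that step the log2 level of the median gene exceeded that of control by 0.74 for Myc+E2f/Dp, 0.30 for Yki*+Dp and 0.05 for YkiWT, and every fold below is relative to that shift. The step also sets the balance of directions over all genes. In Myc+E2f/Dp against control 55.3% of the passing genes were higher after scaling and 93.2% with TPM as deposited, and in Yki*+Dp against control 53.2% and 91.8%.

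The log2 fold changes are differences of log2(scaled TPM + 1) with their standard error, and they understate the change of genes near or below 1 TPM. For such genes the plain ratio of scaled means is given too. A gene is said to have risen or fallen where the limma test, adjusted by Benjamini-Hochberg over all 8128 genes, gave a p below 0.05, and it is called where its log2 fold change was also at least 1 in size.

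Against control, 6 members rose and 0 fell in Yki*+Dp, where 20.7% of all tested genes rose and 39.0% changed in either direction. In Myc+E2f/Dp, 7 members rose and 1 fell, against 35.8% of all tested genes that rose and 64.9% that changed. In YkiWT, 2 members rose and 0 fell, against 7.34% and 10.6%; by limma's unadjusted p below 0.05, 5 members were higher and 0 lower there. The call with a log2 fold of at least 1 was met by 1 member in Yki*+Dp (5.52% of all genes were called higher), by 1 in YkiWT (1.88%) and by 5 in Myc+E2f/Dp (7.15%). The median log2 fold change of the 9 tested members was 0.76, 0.36 and 1.13 in Yki*+Dp, YkiWT and Myc+E2f/Dp, beside -0.00, 0.01 and 0.05 for all tested genes. In Yki*+Dp, puc, Jra and Ets21C lay just short of a log2 fold of 1, and with a pseudocount of 0.5 in place of 1 the called count was 4. These 3 comparisons share their control libraries.

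Some of these counts follow from the filter. The ligand gene egr reached 1 TPM in Myc+E2f/Dp libraries only, Ets21C in none of the control libraries, and Mmp1 in 2 of them, so these genes entered the test through the genotypes in which they are high. Among the 6 members with at least 1 TPM in all control libraries (grnd, wgn, bsk, Jra, kay and puc), 4 rose in Yki*+Dp, 1 rose in YkiWT, and 4 rose and 1 fell in Myc+E2f/Dp.

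**Figure D1:**
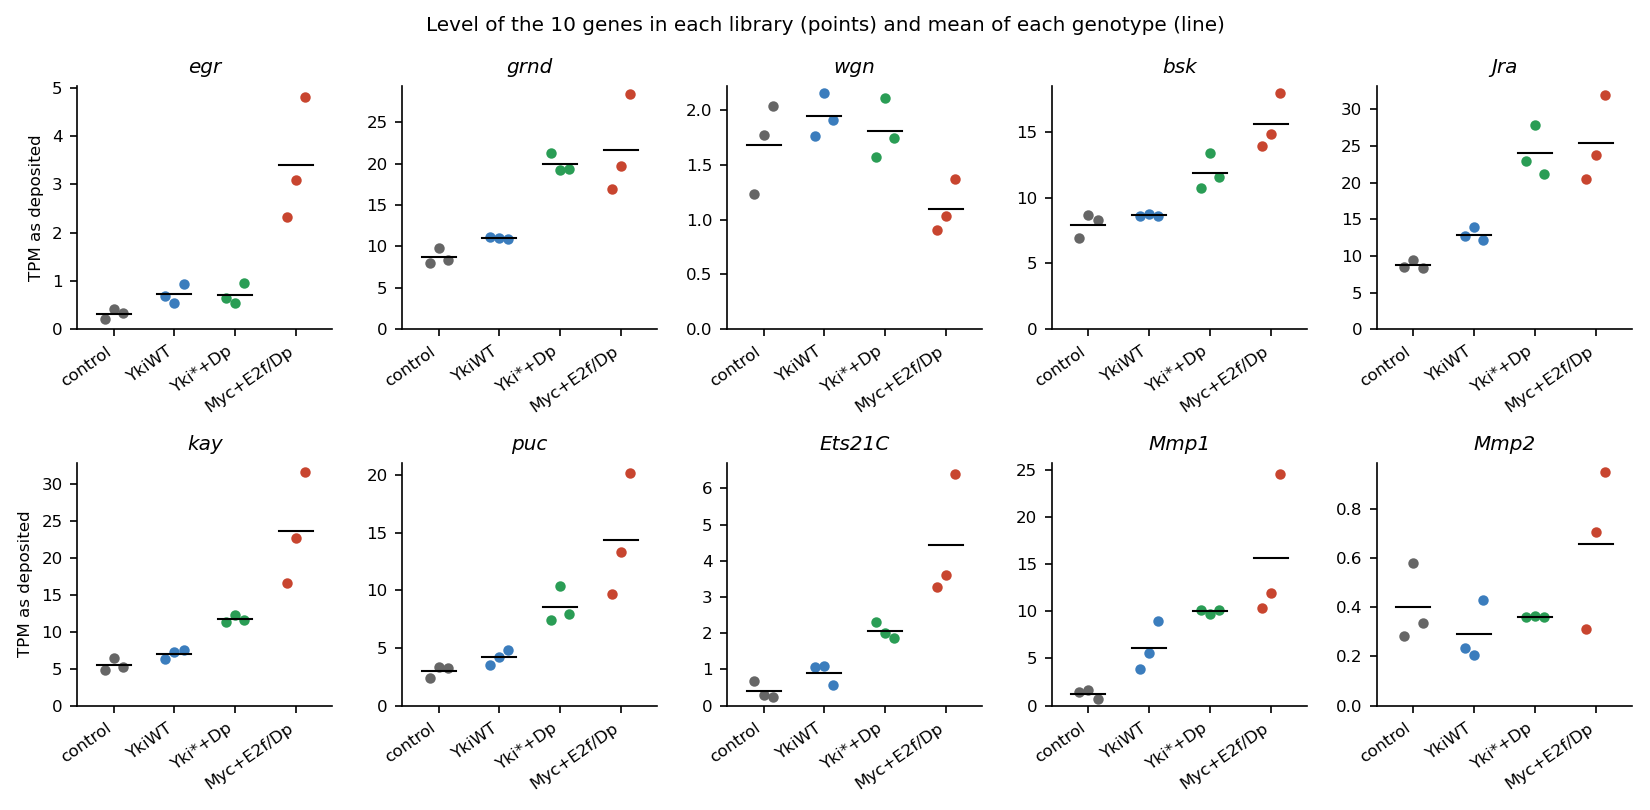
Level of each of the 10 genes in every library, in TPM as deposited, with 1 point per library and a bar at the mean of the 3 libraries of each genotype. The 3 Myc+E2f/Dp libraries are the highest for egr, bsk, kay, Ets21C and Mmp1, wgn has its lowest mean there, and Mmp2 lies below 1 TPM in all libraries.

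The ligand gene egr was close to silent in control glands and rose in Myc+E2f/Dp. It lies on chromosome arm 2R from 10078366 to 10084210 on the plus strand (BDGP6). Its level was 0.213, 0.420 and 0.340 TPM in control, 0.690, 0.539 and 0.931 TPM in YkiWT, 0.638, 0.533 and 0.962 TPM in Yki*+Dp, and 2.33, 3.10 and 4.81 TPM in Myc+E2f/Dp. All Myc+E2f/Dp libraries stood above all others, while YkiWT and Yki*+Dp covered the same range. The scaled mean was 5.94 times that of control in Myc+E2f/Dp, with 1.25 ± 0.15 as log2 fold change (SE, limma adjusted p = 3.51e-05). In Yki*+Dp it was 0.26 ± 0.15 (adjusted p = 0.208) and in YkiWT 0.41 ± 0.15 (adjusted p = 0.12), neither past the threshold although both sets of libraries lie above control. Set directly against Yki*+Dp, Myc+E2f/Dp was higher by 0.99 (95% interval 0.66 to 1.33, adjusted p = 0.000228).

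The receptor genes moved in opposite directions in Myc+E2f/Dp. Grindelwald, a transmembrane TNF receptor, is encoded on 2L from 18485417 to 18488021 on the plus strand. The level of grnd was 7.95, 9.86 and 8.38 TPM in control, 11.2, 11 and 10.9 TPM in YkiWT, 21.3, 19.3 and 19.4 TPM in Yki*+Dp, and 16.9, 19.7 and 28.4 TPM in Myc+E2f/Dp. The 3 YkiWT libraries form a narrow step between control and the other genotypes, and the Myc+E2f/Dp libraries spread over both sides of Yki*+Dp. The gene rose by 0.76 ± 0.11 in Yki*+Dp (adjusted p = 0.000208) and by 0.43 ± 0.11 in Myc+E2f/Dp (adjusted p = 0.00431). In YkiWT the log2 fold change was 0.26 ± 0.11 (adjusted p = 0.151). That value passed when Myc+E2f/Dp replicate 3 was left out (adjusted p = 0.0323) and in a fit of YkiWT and control only (adjusted p = 0.0334). Its adjusted p was at most 0.33 over all alternatives.

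Wengen, the other TNF receptor, is encoded on the X from 18624042 to 18634908 on the minus strand. The level of wgn was 1.23, 1.77 and 2.04 TPM in control, 1.76, 2.16 and 1.91 TPM in YkiWT, 1.57, 2.11 and 1.74 TPM in Yki*+Dp, and 0.902, 1.03 and 1.37 TPM in Myc+E2f/Dp. Before scaling, the highest Myc+E2f/Dp library overlaps the lowest control library, and after scaling all 3 lie below control. In Myc+E2f/Dp it fell by 0.79 ± 0.11 (log2 units, adjusted p = 7.07e-05), to 0.369 of the scaled control mean, and was the only member that fell in a comparison with control. Against Yki*+Dp the difference was -0.62 (adjusted p = 0.000482). In Yki*+Dp the log2 fold change against control was -0.17 ± 0.11 (adjusted p = 0.226), with the opposite sign, 0.07, for TPM as deposited.

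The transcript of JNK itself varied least. The kinase gene bsk lies on 2L from 10247502 to 10250501 on the minus strand. Its level was 6.92, 8.66 and 8.29 TPM in control, 8.61, 8.79 and 8.63 TPM in YkiWT, 10.7, 13.4 and 11.6 TPM in Yki*+Dp, and 13.9, 14.9 and 18.0 TPM in Myc+E2f/Dp. In deposited TPM the Yki*+Dp and Myc+E2f/Dp libraries all exceed control, but the scaled means were only 1.15 and 1.11 times control. The log2 fold changes were 0.18 ± 0.07 in Yki*+Dp (adjusted p = 0.0521), 0.07 ± 0.07 in YkiWT (adjusted p = 0.557) and 0.14 ± 0.07 in Myc+E2f/Dp (adjusted p = 0.0967), none past the threshold. The Yki*+Dp value passed without control replicate 3, Yki*+Dp replicate 1 or Myc+E2f/Dp replicate 3 and with the filter at 5 TPM (adjusted p = 0.0478). Its adjusted p was at most 0.2 over the alternatives. Without the scaling bsk was higher by 0.53 in Yki*+Dp (adjusted p = 0.00225) and by 0.89 in Myc+E2f/Dp (adjusted p = 1.28e-05), and with scaling at the 75th percentile it was higher by 0.22 in Myc+E2f/Dp (adjusted p = 0.0104).

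Both AP-1 subunit genes rose in these genotypes, Jra more in Yki*+Dp and kay more in Myc+E2f/Dp. Jra, which encodes the fly Jun, lies on 2R from 10096480 to 10098556 on the plus strand. Its level was 8.44, 9.50 and 8.40 TPM in control, 12.7, 13.9 and 12.1 TPM in YkiWT, 22.9, 27.8 and 21.2 TPM in Yki*+Dp, and 20.5, 23.7 and 32.0 TPM in Myc+E2f/Dp. Control, YkiWT and the 2 other genotypes form 3 levels with no overlap, and Yki*+Dp and Myc+E2f/Dp cover the same range. The rise was 0.99 ± 0.10 in Yki*+Dp (adjusted p = 2.8e-05), 0.64 ± 0.10 in Myc+E2f/Dp (adjusted p = 0.000254) and 0.46 ± 0.10 in YkiWT (adjusted p = 0.0161). The rise in YkiWT is fragile. It was lost when control replicate 2 or 3 or YkiWT replicate 1 or 2 was left out and with TPM as deposited. The adjusted p ran from 0.0053 to 0.0636 over the alternatives.

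The Fos gene kay lies on 3R from 29765995 to 29794113 on the plus strand. Its level was 4.85, 6.41 and 5.28 TPM in control, 6.33, 7.27 and 7.47 TPM in YkiWT, 11.3, 12.3 and 11.6 TPM in Yki*+Dp, and 16.6, 22.7 and 31.5 TPM in Myc+E2f/Dp. Here the 4 genotypes are nearly stacked in that order, with an overlap between control and YkiWT only. The gene rose by 1.13 ± 0.12 in Myc+E2f/Dp (adjusted p = 1.42e-05) and by 0.64 ± 0.12 in Yki*+Dp (adjusted p = 0.00157). In YkiWT the log2 fold change was 0.27 ± 0.12 (adjusted p = 0.204).

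Since the subunits work as a pair, their balance within each library is free of the scaling. The ratio of Jra to kay in TPM was 1.74, 1.48 and 1.59 in control, 2.0, 1.91 and 1.62 in YkiWT, 2.02, 2.27 and 1.82 for Yki*+Dp, and 1.24, 1.04 and 1.01 for Myc+E2f/Dp. All Myc+E2f/Dp libraries lie below all others, and those of Yki*+Dp lie above control, so Fos and Jun RNA were near equal per length in Myc+E2f/Dp while Jun RNA was in excess elsewhere. In the model the contrast of Myc+E2f/Dp with Yki*+Dp was 0.49 for kay (95% interval 0.22 to 0.76, adjusted p = 0.00525) and -0.35 for Jra (-0.57 to -0.12, adjusted p = 0.0137).

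The kay difference was 0.49 in that contrast after scaling and kept its sign under every alternative run. The Jra difference did not: it was 0.07 with TPM as deposited. It also no longer passed without Yki*+Dp replicate 2, Myc+E2f/Dp replicate 1 or Myc+E2f/Dp replicate 2 (adjusted p from 0.00238 to 0.705 over the alternatives).

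The feedback phosphatase gene puc, the most used reporter of JNK activity in the fly, rose in Yki*+Dp and Myc+E2f/Dp. It lies on 3R from 8105332 to 8122294 on the plus strand. Its level was 2.38, 3.31 and 3.24 TPM in control, 3.53, 4.18 and 4.86 TPM in YkiWT, 7.41, 10.4 and 7.93 TPM in Yki*+Dp, and 9.68, 13.3 and 20.2 TPM in Myc+E2f/Dp. Control, YkiWT and Yki*+Dp do not overlap, while the lowest Myc+E2f/Dp library lies inside the Yki*+Dp range. The scaled mean was 2.21 times control in Yki*+Dp (log2 fold change 0.96 ± 0.17, adjusted p = 0.000906) and 2.70 times in Myc+E2f/Dp (1.20 ± 0.17, adjusted p = 9.41e-05). In YkiWT it was 1.36 times control, with a log2 fold change of 0.36 ± 0.17 (adjusted p = 0.213).

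Relative to the kinase it restrains, puc RNA also stood higher. The ratio of puc to bsk was 0.344, 0.382 and 0.391 in control, 0.410, 0.475 and 0.563 in YkiWT, 0.690, 0.774 and 0.683 for Yki*+Dp, and 0.695, 0.894 and 1.12 for Myc+E2f/Dp. No library of an oncogene genotype falls into the control range, and only Yki*+Dp and Myc+E2f/Dp overlap.

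Ets21C, a stress-inducible ETS transcription factor gene on 2L from 544925 to 552923 on the minus strand, followed the same order from a lower base. Its level was 0.682, 0.289 and 0.231 TPM in control, 1.07, 1.10 and 0.560 TPM in YkiWT, 2.32, 2.01 and 1.87 TPM in Yki*+Dp, and 3.27, 3.6 and 6.41 TPM in Myc+E2f/Dp. YkiWT replicate 3 lies inside the control range in deposited TPM, and Yki*+Dp and Myc+E2f/Dp stand apart from it and from each other. Scaled means were 2.12, 3.84 and 5.96 times control in YkiWT, Yki*+Dp and Myc+E2f/Dp. Its log2 fold change reached 1.43 ± 0.20 in Myc+E2f/Dp (adjusted p = 8.5e-05) and was just under 1 in Yki*+Dp (0.996 ± 0.195, adjusted p = 0.00202) and 0.47 ± 0.20 in YkiWT (adjusted p = 0.158).

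Mmp1, a protease known to cleave basement membrane, was the only member called in all 3 oncogene genotypes. It lies on 2R from 24671294 to 24688184 on the minus strand. Its level was 1.45, 1.67 and 0.684 TPM in control, 3.91, 5.55 and 8.99 TPM in YkiWT, 10.1, 9.66 and 10.2 TPM in Yki*+Dp, and 10.3, 11.9 and 24.6 TPM in Myc+E2f/Dp. Every oncogene library exceeds every control library. The oncogene genotypes differ most in spread: the mean was 9.98 ± 0.273 TPM in Yki*+Dp (SD, n = 3), while the SD was 2.59 TPM in YkiWT and 7.80 TPM in Myc+E2f/Dp.

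Scaled means of Mmp1 were 4.67, 6.05 and 6.82 times control in YkiWT, Yki*+Dp and Myc+E2f/Dp. The log2 fold changes were 1.67 ± 0.29 (adjusted p = 0.00442), 2.06 ± 0.29 (adjusted p = 0.0002) and 2.16 ± 0.29 (adjusted p = 6.62e-05). Its change in YkiWT was between 1.39 and 2.16 under every alternative run, in Yki*+Dp between 1.84 and 2.60, and in Myc+E2f/Dp between 1.87 and 2.80. The oncogene genotypes were not separated from one another: Myc+E2f/Dp against Yki*+Dp gave 0.10 (95% interval -0.53 to 0.73, adjusted p = 0.789) and Yki*+Dp against YkiWT gave 0.39 (-0.23 to 1.02, adjusted p = 0.334). The former was -0.19 without Myc+E2f/Dp replicate 3.

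Mmp2, the other fly matrix metalloproteinase, has its gene on 2R from 9611139 to 9683858 on the minus strand, and its RNA stayed low. Its level was 0.285, 0.580 and 0.335 TPM in control, 0.234, 0.205 and 0.431 TPM in YkiWT, 0.359, 0.366 and 0.361 TPM in Yki*+Dp, and 0.313, 0.704 and 0.951 TPM in Myc+E2f/Dp. In deposited TPM all genotypes overlap control, while after scaling the Yki*+Dp libraries, at 0.339 to 0.355, lie below control, at 0.387 to 0.657, and the others overlap it. When the fit was run with no filter, its log2 fold change was -0.14 in Yki*+Dp (adjusted p = 0.48), -0.14 in YkiWT (adjusted p = 0.55) and -0.04 in Myc+E2f/Dp (adjusted p = 0.79). At this level a change of moderate size could not be seen on this scale.

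**Figure D2:**
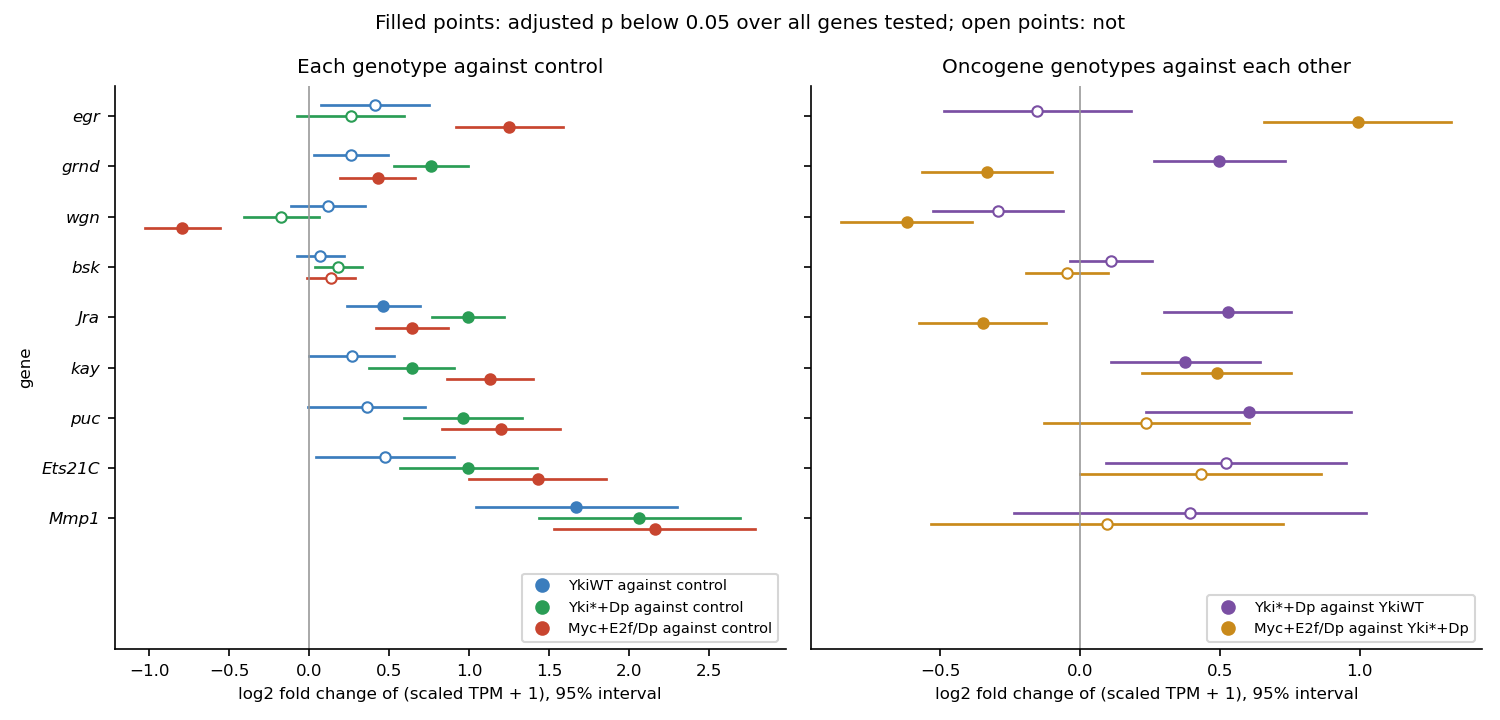
Log2 fold change of the 9 tested genes with its 95% interval in each oncogene genotype against control and in both direct comparisons, on the log2(scaled TPM + 1) scale. Intervals for Mmp1 lie above 0 in all 3 comparisons with control and cover 0 in both direct comparisons, and wgn is the gene whose interval lies below 0 in Myc+E2f/Dp.

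Set directly against each other, Myc+E2f/Dp and Yki*+Dp differed in 5 members: egr and kay were higher in Myc+E2f/Dp, and grnd, wgn and Jra were lower, where 28.8% of all tested genes were higher and 27.9% lower. With TPM as deposited the split was 5 higher and 1 lower, and with 75th percentile scaling 3 higher and 1 lower, so the lower direction of grnd and Jra rests on the scaling. For grnd the difference was -0.33 (95% interval -0.57 to -0.10, adjusted p = 0.0197) and became 0.08 with TPM as deposited. It was also lost without Yki*+Dp replicate 1, Myc+E2f/Dp replicate 1 or Myc+E2f/Dp replicate 2, with adjusted p from 0.000583 to 0.658 over the alternatives. The targets fell short of the threshold, puc with a difference of 0.24 (-0.13 to 0.61, adjusted p = 0.246) and Ets21C with 0.43 (0.00 to 0.86, adjusted p = 0.0802), although all Ets21C libraries of Myc+E2f/Dp lay above those of Yki*+Dp. Both depend on the setting. With TPM as deposited Ets21C passed at 0.78 (adjusted p = 0.00469) and puc at 0.64 (adjusted p = 0.0185), Ets21C passed with 75th percentile scaling at 0.55 (adjusted p = 0.0333), and puc passed without Myc+E2f/Dp replicate 1 at 0.41 (adjusted p = 0.0464). No member was called at a log2 fold of 1 by limma, and the same count of 0 held at an unadjusted p below 0.05, while 10.5% of all genes were called in either direction.

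Yki*+Dp against YkiWT compares both Yki forms, though Yki*+Dp also carries Dp and the E2F1 transgene. In that contrast 4 members rose and 0 fell, against 14.6% and 13.1% of all tested genes, and at an unadjusted p below 0.05 by limma 5 were higher and 1, wgn, was lower. With 75th percentile scaling the split was 3 higher and 1 lower (wgn), and with TPM as deposited 6 higher and 0 lower. The risers were Jra by 0.53 (95% interval 0.30 to 0.75, adjusted p = 0.00328), grnd by 0.50 (0.27 to 0.73, adjusted p = 0.00537), puc by 0.60 (0.24 to 0.97, adjusted p = 0.0206) and kay by 0.38 (0.11 to 0.64, adjusted p = 0.0393). The last 2 depend on single libraries. The rise of puc was lost without YkiWT replicate 1, YkiWT replicate 2 or Yki*+Dp replicate 2 (adjusted p from 0.0050 to 0.0836 over the alternatives). That of kay was lost without any 1 of the YkiWT or Yki*+Dp libraries, control replicate 1 or 3 or Myc+E2f/Dp replicate 2 (0.00507 to 0.116).

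Counted by scaled values without overlap, 8 of the 9 tested members lay wholly above control in Yki*+Dp, where 27.8% of all tested genes did. The figures were 6 members and 18.4% in YkiWT. In Myc+E2f/Dp, 8 members lay wholly above control and wgn wholly below, against 39.8% and 31.3% of all genes. Within Myc+E2f/Dp, replicate 3 was the highest library for 10 of 10 members both before and after scaling, and its scaling factor was the lowest of the 12. Without it bsk passed in Yki*+Dp and grnd in YkiWT. The log2 fold change of kay in Myc+E2f/Dp was then 0.975, which took the called count there from 5 to 4. The other members kept their side of both thresholds against control in Yki*+Dp and Myc+E2f/Dp.

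**Figure D3:**
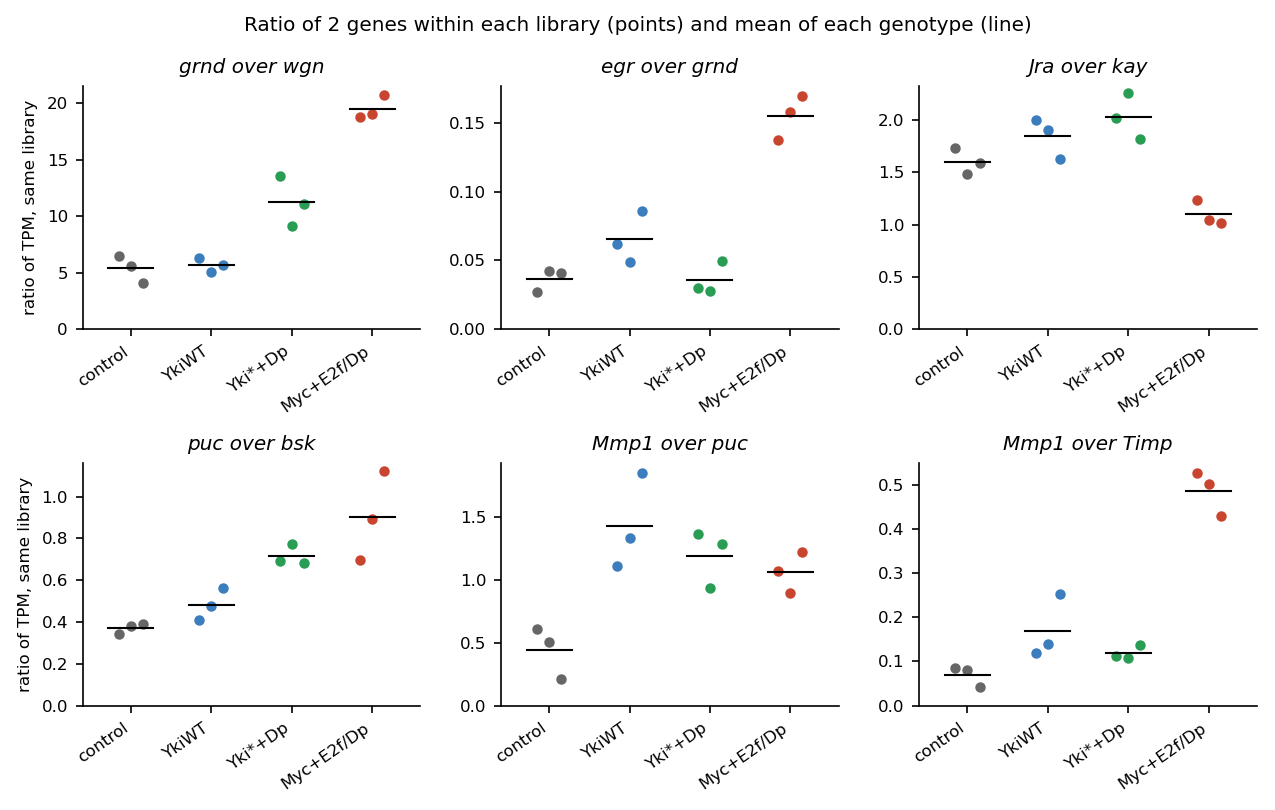
Ratios of TPM between pairs of genes within each library, with 1 point per library. Jra to kay is lowest in Myc+E2f/Dp, grnd to wgn is highest there, and Mmp1 to Timp in Myc+E2f/Dp lies above the other genotypes.

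The receptors shifted against each other in Yki*+Dp and again in Myc+E2f/Dp. The ratio of grnd to wgn was 6.46, 5.56 and 4.11 in control, 6.34, 5.09 and 5.69 in YkiWT, 13.6, 9.15 and 11.1 for Yki*+Dp, and 18.8, 19.1 and 20.7 for Myc+E2f/Dp. Control and YkiWT overlap, and Yki*+Dp and Myc+E2f/Dp each stand apart. The ratio of ligand to receptor RNA, egr to grnd, was 0.138, 0.158 and 0.170 in Myc+E2f/Dp and lay between 0.0268 and 0.0857 in all other libraries. These ratios are descriptions and were not tested.

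Transcript values show which forms of kay, puc and Mmp1 carried the gene levels. The kay transcripts share their end at 29794113 and differ in where they start. The form kay-RA, with its start at 29772892, held 76.4 ± 0.4% of the gene's TPM in control (SD, n = 3), 63.0 ± 4.8% in YkiWT, 51.1 ± 2.7% in Yki*+Dp and 48.8 ± 5.2% in Myc+E2f/Dp. Its level was 3.69, 4.92 and 4.04 TPM in control, 3.93, 4.96 and 4.39 TPM in YkiWT, 6.16, 6.05 and 5.81 TPM in Yki*+Dp, and 8.56, 11.8 and 13.5 TPM in Myc+E2f/Dp. More of the added kay RNA lay on the other starts than on this one.

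The longest-reaching form, kay-RD, starts at 29765995, upstream of kay-RA. Its level was 0.334, 0.455 and 0.376 TPM in control, 0.736, 0.822 and 0.984 TPM in YkiWT, 2.07, 2.29 and 2.23 TPM in Yki*+Dp, and 3.68, 5.06 and 8.27 TPM in Myc+E2f/Dp. These are 4 levels without overlap, and kay-RB has them too. For kay-RB, whose start at 29782609 lies downstream of kay-RA, the level was 0.355, 0.454 and 0.337 TPM in control, 0.991, 0.966 and 1.33 TPM in YkiWT, 2.40, 3.28 and 2.76 TPM in Yki*+Dp, and 3.47, 4.58 and 8.10 TPM in Myc+E2f/Dp.

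Of the 8 transcripts of these genes that could be tested, 7 rose against control in Yki*+Dp (17.7% of all 13045 tested transcripts), 2 in YkiWT (5.27%) and 7 in Myc+E2f/Dp (28.9%). Part of these counts follows from the filter. Apart from kay-RA and puc-RA, the tested forms were below 1 TPM in every control library. They entered the test through the genotypes in which they are high. The change of kay-RB was 1.32 in Yki*+Dp (adjusted p = 0.00013) and 1.64 in Myc+E2f/Dp (adjusted p = 1.31e-05), and that of kay-RD was 1.06 (adjusted p = 0.000244) and 1.70 (adjusted p = 4.22e-06). By contrast kay-RA changed by 0.11 in Yki*+Dp (adjusted p = 0.402) and rose by 0.51 in Myc+E2f/Dp (adjusted p = 0.00103). In YkiWT only kay-RB rose among the kay forms, by 0.65 (adjusted p = 0.0369). That rise was lost without any 1 of the control or YkiWT libraries, Yki*+Dp replicate 3 or Myc+E2f/Dp replicate 2 (0.00453 to 0.148 over the alternatives). At a pseudocount of 0.1, kay-RD passed there too, at 0.94 (adjusted p = 0.016).

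The usage test sets each transcript against the other tested transcripts of its gene. It has the same limit from the filter. Apart from kay-RA, the forms it compares entered through the genotypes in which they are high. The form kay-RF, below 1 TPM in every library, was left out. The directions of the kay usage changes are thus partly set by the filter, while the shares above count all forms. Usage of kay-RA fell by 1.08 on the log2 scale in Yki*+Dp (adjusted p = 6.21e-05) and by 1.16 in Myc+E2f/Dp (adjusted p = 1.17e-05). In YkiWT it was -0.53 (adjusted p = 0.0857), and Myc+E2f/Dp against Yki*+Dp gave -0.09 (adjusted p = 0.819). Usage of kay-RB rose by 0.73 in Yki*+Dp (adjusted p = 0.00428) and by 0.54 in Myc+E2f/Dp (adjusted p = 0.0251), and kay-RD by 0.62 in Myc+E2f/Dp (adjusted p = 0.00938), and all 3 of these were lost with TPM as deposited. The kay-RB usage change in Myc+E2f/Dp was also lost without any 1 of the control libraries (0.00145 to 0.225 over the alternatives). Of the 7 kay and Mmp1 transcripts with this test, usage changed for 2 in Yki*+Dp and 4 in Myc+E2f/Dp, where 14.6% and 23.1% of all transcripts with a usage test changed. Beside the kay forms, Mmp1-RD was counted in Myc+E2f/Dp at the very edge of the threshold (-0.77, adjusted p = 0.049988, and 0.0569 with the replicate block). In YkiWT limma found 0 (5.02% of all), with 2 at an unadjusted p below 0.05, in Myc+E2f/Dp against Yki*+Dp 2 (18.9%) and in Yki*+Dp against YkiWT 1 (11.8%).

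**Figure D4:**
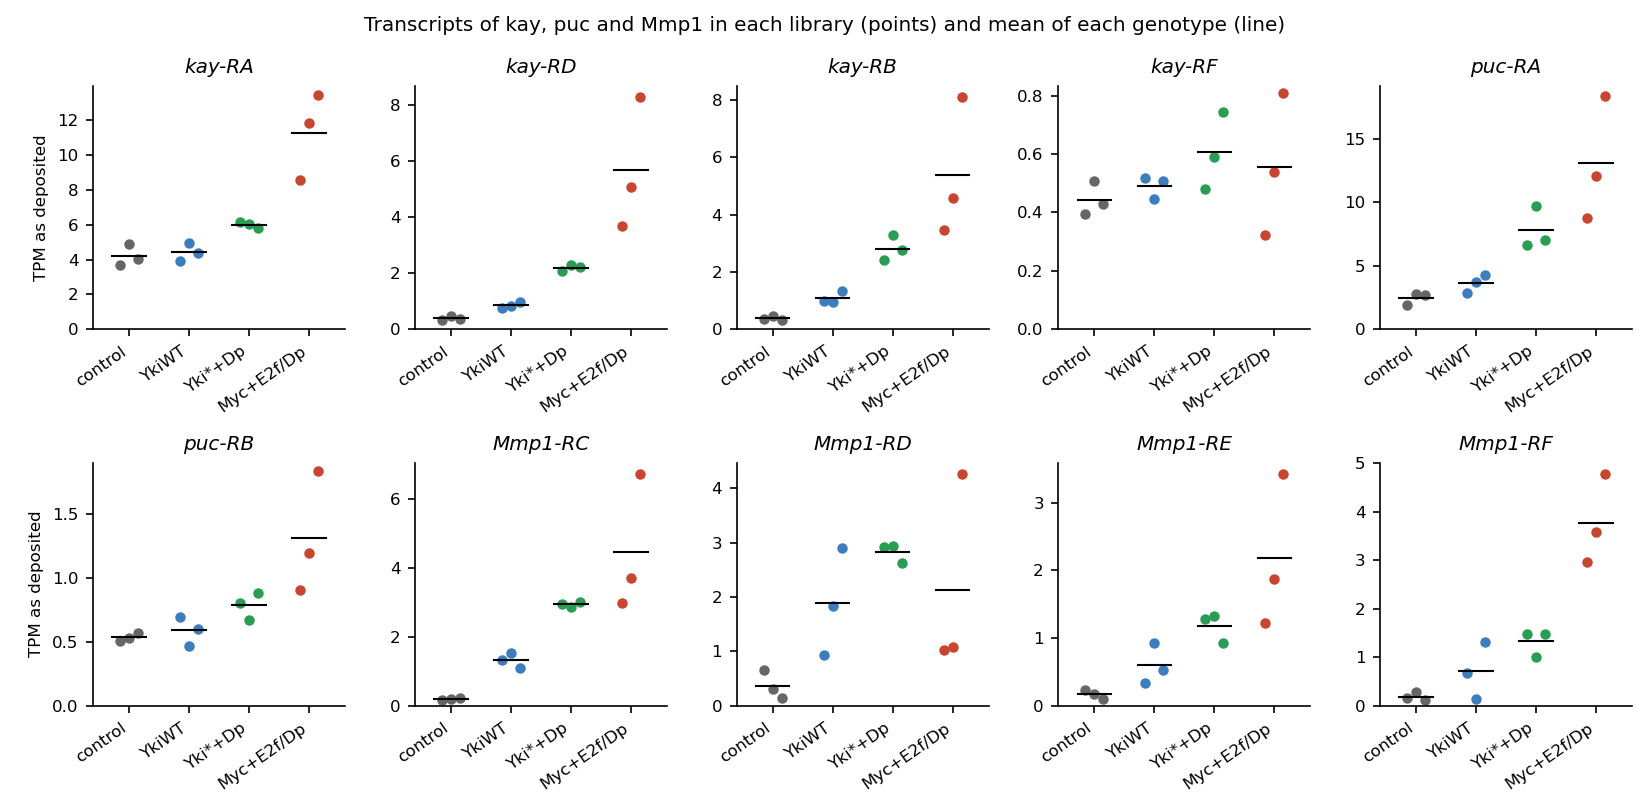
Level of the tested transcripts of kay, puc and Mmp1 in every library, in TPM as deposited, with 1 point per library and a bar at the mean of each genotype. The forms kay-RF and puc-RB are drawn too, although they were not tested. The forms kay-RB and kay-RD climb from below 0.5 TPM in control to above 3 TPM in Myc+E2f/Dp, while kay-RA starts higher and changes by a smaller fold.

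For puc a single form dominated. The form puc-RA, from the outermost start at 8105332, was at 1.87, 2.78 and 2.67 TPM in control, 2.84, 3.71 and 4.26 TPM in YkiWT, 6.60, 9.71 and 7.05 TPM in Yki*+Dp, and 8.78, 12.1 and 18.4 TPM in Myc+E2f/Dp. It held 81.8 ± 2.8% of puc TPM in control and 90.9 ± 0.2% in Myc+E2f/Dp (SD, n = 3), and it rose by 1.06 in Yki*+Dp (adjusted p = 0.00107) and 1.3 in Myc+E2f/Dp (adjusted p = 0.000137). Since puc-RB, from the start at 8106488, was not tested, there is no usage test for this gene.

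Mmp1 RNA was spread over several forms, of which 4 could be tested, and these differ at both ends. The form Mmp1-RC was at 0.178, 0.182 and 0.233 TPM in control, 1.33, 1.53 and 1.11 TPM in YkiWT, 2.95, 2.87 and 3.02 TPM in Yki*+Dp, and 2.98, 3.70 and 6.73 TPM in Myc+E2f/Dp. It rose in all 3 genotypes, by 1.61 in Yki*+Dp (adjusted p = 1.87e-05), 1.05 in YkiWT (adjusted p = 0.00204) and 1.68 in Myc+E2f/Dp (adjusted p = 5.83e-06). For this form control and YkiWT stand apart from each other and from the other genotypes, which overlap.

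Mmp1-RD and Mmp1-RF, which share the end at 24674676 but not the start, parted between the oncogene genotypes. The level of Mmp1-RD was 0.664, 0.301 and 0.145 TPM in control, 0.934, 1.83 and 2.90 TPM in YkiWT, 2.92, 2.94 and 2.63 TPM in Yki*+Dp, and 1.02, 1.07 and 4.27 TPM in Myc+E2f/Dp. For Mmp1-RF, from the inner start at 24685090, it was 0.150, 0.281 and 0.120 TPM in control, 0.669, 0.147 and 1.32 TPM in YkiWT, 1.48, 1.0 and 1.48 TPM in Yki*+Dp, and 2.96, 3.57 and 4.78 TPM in Myc+E2f/Dp. Mmp1-RF was the more abundant of the pair in all 3 Myc+E2f/Dp libraries, and Mmp1-RD in all 3 Yki*+Dp libraries.

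In the comparison of Myc+E2f/Dp with Yki*+Dp, usage of Mmp1-RD was lower by 1.02 (log2 change -1.02, adjusted p = 0.00984) and usage of Mmp1-RF higher by 0.82 (adjusted p = 0.0394). These usage changes are weak: that of Mmp1-RD was lost without Myc+E2f/Dp replicate 2 (0.00125 to 0.0736 over the alternatives), and that of Mmp1-RF at either lower pseudocount, with TPM as deposited and without any 1 of the Yki*+Dp libraries, control replicate 2 or 3 or Myc+E2f/Dp replicate 1 or 2 (0.00785 to 0.163). Summed by start, forms from 24685090 held 41.4 ± 6.3% of Mmp1 TPM in control, 30.8 ± 4.2% in YkiWT, 33.4 ± 3.4% in Yki*+Dp and 52.6 ± 6.1% in Myc+E2f/Dp (SD, n = 3). Summed by end, the shares differed little, with 56.8%, 57.1%, 57.5% and 60.2% ending at 24671294. How reads shared by overlapping forms are divided is an estimate of the quantifier, and that step was not examined here.

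Other genes of the pathway were read from 5 lists of 59 genes, 49 of them tested. Some of the genes on them are named by the study for these same libraries, so the lists are not independent of it. Of the 49, 24 rose and 2 fell in Yki*+Dp, 4 rose and 0 fell in YkiWT, and 27 rose and 5 fell in Myc+E2f/Dp. Of all tested genes 20.7%, 7.34% and 35.8% rose in these genotypes, and each list count below is to be read against those shares; the YkiWT count is near its share. With TPM as deposited the Myc+E2f/Dp split was 44 higher and 0 lower and the Yki*+Dp split 40 higher and 1 lower, and with 75th percentile scaling they gave 28 and 3, and 21 and 3.

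Upstream, the 11 kinases and adaptors between receptor and JNK included 2 that rose and 1 that fell in Yki*+Dp and 7 that rose in Myc+E2f/Dp, the first of these near the 20.7% of all tested genes and the last beside 35.8%. In YkiWT the limma count was 0, with 1 higher and 0 lower at an unadjusted p below 0.05. Their median log2 fold change was 0.10, -0.06 and 0.26 in Yki*+Dp, YkiWT and Myc+E2f/Dp. The MAP4 kinase gene msn rose by 0.97 in Yki*+Dp (adjusted p = 3.1e-05) and 0.65 in Myc+E2f/Dp (adjusted p = 0.00021), and the JNK kinase gene hep rose by 0.55 in Myc+E2f/Dp (adjusted p = 0.00012).

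The adaptor gene Traf4 fell in Yki*+Dp. Its level was 2.58, 4.06 and 3.86 TPM in control, 2.34, 3.22 and 2.97 TPM in YkiWT, 1.0, 1.53 and 1.28 TPM in Yki*+Dp, and 2.85, 4.69 and 6.20 TPM in Myc+E2f/Dp. The Yki*+Dp libraries lie below all others. The log2 fold change was -1.26 (adjusted p = 9.7e-05), and in Myc+E2f/Dp it was -0.36 (adjusted p = 0.062), with the opposite sign, 0.28, for TPM as deposited.

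Scaffolds and regulators of JNK signalling, 11 tested, rose in 9 cases in Yki*+Dp and in 4 in Myc+E2f/Dp, where 1 fell, beside 20.7% and 35.8% of all tested genes, so that the Myc+E2f/Dp count is near the share over all genes; in YkiWT the limma count was 0, with 2 higher at an unadjusted p below 0.05. With TPM as deposited all 11 were higher in either genotype. The small GTPase gene Rac2 rose by 1.13 in Yki*+Dp (adjusted p = 7.8e-05) and 0.92 in Myc+E2f/Dp (adjusted p = 0.00016), and Cdc42 rose by 0.80 in Yki*+Dp (adjusted p = 2.8e-05) with 0.02 in Myc+E2f/Dp. The kinase gene Src64B rose by 0.91 in Yki*+Dp (adjusted p = 0.001), with -0.16 in Myc+E2f/Dp (adjusted p = 0.38).

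Among 8 AP-1 partners and stress transcription factors, 2 rose in Yki*+Dp, 1 in YkiWT and 6 in Myc+E2f/Dp, where 1 fell. The shares over all tested genes were 20.7%, 7.34% and 35.8%, and the Yki*+Dp and YkiWT counts are near theirs. The fall in Myc+E2f/Dp was gone under both other scalings. Irbp18, which encodes a C/EBP-family partner of Xrp1, rose by 1.27 in Myc+E2f/Dp (adjusted p = 9.2e-06), and was 0.98 higher there than in Yki*+Dp (adjusted p = 7e-05).

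**Figure D5:**
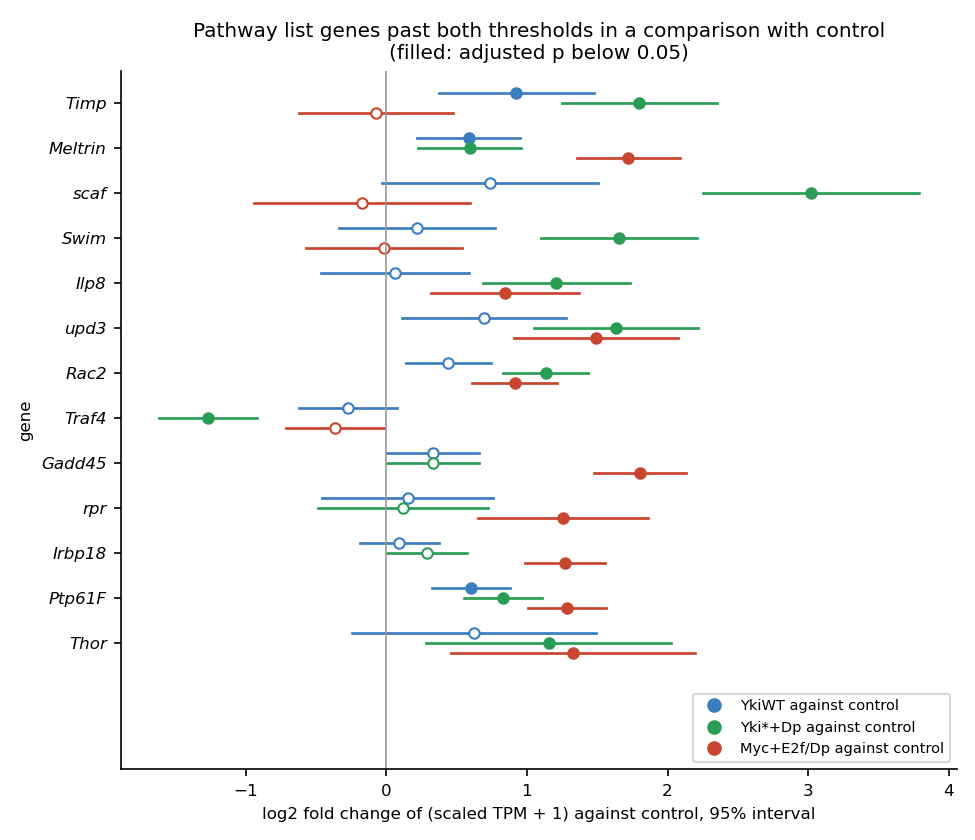
Log2 fold change against control in Yki*+Dp, YkiWT and Myc+E2f/Dp, on the log2(scaled TPM + 1) scale. Only the listed pathway genes called in at least 1 comparison with control are drawn. The points for scaf, Timp and Swim lie far to the right in Yki*+Dp and near 0 in Myc+E2f/Dp, and those for Gadd45, Meltrin and rpr lie to the right in Myc+E2f/Dp.

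Genes reported as JNK-linked in fly tumours and wounds, 12 of 16 tested, rose in 7 cases each in Yki*+Dp and Myc+E2f/Dp, where 2 fell in the latter, and in 1 case in YkiWT, beside 20.7%, 35.8% and 7.34% of all tested genes; the YkiWT count is near its share. The filter adds to the counts of rises. The riser upd3 was below 1 TPM in every control and YkiWT library and entered the test through Yki*+Dp and Myc+E2f/Dp. The falls were absent with TPM as deposited. These genes did not move as 1 block. The serine protease homologue gene scaf was at 0.393, 1.80 and 0.424 TPM in control, 1.34, 1.06 and 3.83 TPM in YkiWT, 11.3, 20.6 and 15.3 TPM in Yki*+Dp, and 0.668, 0.947 and 1.5 TPM in Myc+E2f/Dp. All Yki*+Dp libraries stand far above the rest, 14.4 times control after scaling, and Myc+E2f/Dp overlaps control. The log2 fold change of scaf was 3.02 in Yki*+Dp (adjusted p = 5.6e-05), -0.17 in Myc+E2f/Dp (adjusted p = 0.67) and -3.19 between them (adjusted p = 1.8e-05).

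Swim, which encodes a secreted carrier of Wingless, had the same split. Its level was 12.3, 14.3 and 19.4 TPM in control, 18.4, 19.5 and 17.2 TPM in YkiWT, 52.8, 85.1 and 58.8 TPM in Yki*+Dp, and 15.8, 27.0 and 42.2 TPM in Myc+E2f/Dp. Its log2 fold change was 1.65 in Yki*+Dp (adjusted p = 0.00038) and -0.02 in Myc+E2f/Dp (adjusted p = 0.95), with 0.76 in the latter for TPM as deposited.

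On the other side, Gadd45, a stress-inducible gene, was at 2.86, 5.45 and 4.53 TPM in control, 4.79, 6.32 and 5.91 TPM in YkiWT, 6.43, 7.54 and 7.36 TPM in Yki*+Dp, and 24.7, 25.4 and 38.8 TPM in Myc+E2f/Dp. It rose by 1.80 in Myc+E2f/Dp (adjusted p = 2e-06), with 0.33 in Yki*+Dp (adjusted p = 0.1), and was 1.47 higher in Myc+E2f/Dp than in Yki*+Dp (adjusted p = 1e-05). The death gene rpr rose by 1.26 in Myc+E2f/Dp (adjusted p = 0.0021), where its level was 2.52, 2.34 and 8.75 TPM, with 0.12 in Yki*+Dp (adjusted p = 0.77). All libraries carry P35, which acts on caspases downstream of rpr.

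The cytokine gene upd3, a JAK/STAT ligand, rose in both. Its level was 0.412, 0.156 and 0.0684 TPM in control, 0.839, 0.908 and 0.850 TPM in YkiWT, 2.68, 3.45 and 3.04 TPM in Yki*+Dp, and 2.41, 2.19 and 7.89 TPM in Myc+E2f/Dp. The changes were 1.64 in Yki*+Dp (adjusted p = 0.00057) and 1.49 in Myc+E2f/Dp (adjusted p = 0.00052), with -0.14 between them (adjusted p = 0.67). The relaxin-like hormone gene Ilp8 rose by 1.21 in Yki*+Dp (adjusted p = 0.0021) and 0.85 in Myc+E2f/Dp (adjusted p = 0.0092), and the JAK/STAT phosphatase gene Ptp61F by 0.83 (adjusted p = 0.00038) and 1.29 (adjusted p = 7.3e-06). Thor, the 4E-BP gene, rose by 1.15 in Yki*+Dp (adjusted p = 0.038) and 1.33 in Myc+E2f/Dp (adjusted p = 0.012); the former call was lost without control replicate 1 or 2, Yki*+Dp replicate 2 or Myc+E2f/Dp replicate 2, with no filter and under the replicate block (adjusted p = 0.0544 with the block and up to 0.149 over the alternatives), and the latter without Myc+E2f/Dp replicate 3 (0.0521).

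The last list holds inhibitors of metalloproteinases and related proteases, with 7 of 12 genes tested: 4 rose and 1 fell in Yki*+Dp, 2 rose in YkiWT, and 3 rose and 1 fell in Myc+E2f/Dp. Beside the 20.7%, 7.34% and 35.8% of all tested genes that rose, the Myc+E2f/Dp count is near its share. Both falls were absent with TPM as deposited. Timp encodes the single fly tissue inhibitor of metalloproteinases. Its level was 16.9, 20.8 and 16.4 TPM in control, 32.8, 40.1 and 35.7 TPM in YkiWT, 89.1, 90.4 and 73.5 TPM in Yki*+Dp, and 19.6, 23.8 and 57.3 TPM in Myc+E2f/Dp. Control, YkiWT and Yki*+Dp are 3 separate levels, and in Myc+E2f/Dp only replicate 3 stands well above control.

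Timp rose by 1.80 in Yki*+Dp (adjusted p = 0.0002) and by 0.93 in YkiWT (adjusted p = 0.038), with -0.07 in Myc+E2f/Dp (adjusted p = 0.81) and -1.87 between Myc+E2f/Dp and Yki*+Dp (adjusted p = 8.1e-05). The rise in YkiWT was lost without any 1 of the control or YkiWT libraries or Yki*+Dp replicate 1, with TPM as deposited, with no filter and under the replicate block (adjusted p = 0.0581 with the block and up to 0.112 over the alternatives). The ratio of Mmp1 to Timp was 0.0861, 0.0804 and 0.0418 in control, 0.119, 0.138 and 0.252 in YkiWT, 0.113, 0.107 and 0.138 for Yki*+Dp, and 0.526, 0.501 and 0.429 for Myc+E2f/Dp. So Timp RNA exceeded Mmp1 RNA per length in all 12 libraries, by the least in Myc+E2f/Dp. Meltrin, an ADAM-family protease gene, rose in all 3, by 0.59 in Yki*+Dp (adjusted p = 0.015), 0.59 in YkiWT (adjusted p = 0.047) and 1.72 in Myc+E2f/Dp (adjusted p = 6.7e-06). The first of these was lost without control replicate 3 (adjusted p up to 0.051 over the alternatives), and that in YkiWT without any 1 of the control, YkiWT or Yki*+Dp libraries or Myc+E2f/Dp replicate 2, with either other scaling and with no filter (up to 0.172).

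As a description, the genes whose pattern over the 12 libraries was most like that of a target were listed by Pearson's r of log2(scaled TPM + 1). For puc these were Asap (0.985), Leash (0.984) and CG17746 (0.984), for Ets21C baf (0.972), Trxr-1 (0.960) and Nmdmc (0.958), and for Mmp1 GstE1 (0.958), w (0.951) and QC (0.951). The 12 points come from only 4 genotypes, so these values mostly record a shared order of genotypes.

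The libraries were checked against markers of the tissue and of cells it could hold. All 6 accessory gland genes were found, at a summed 29694 to 44349 TPM per library, lowest in Myc+E2f/Dp. After scaling the sums were 49593 to 60334 in control, 49381 to 54924 in YkiWT, 31327 to 36098 for Yki*+Dp and 19152 to 26695 for Myc+E2f/Dp. Of these gland genes 4 fell in Yki*+Dp (median log2 fold change of the list -0.70) and 5 in Myc+E2f/Dp (-1.03), or 4 and 3 with TPM as deposited, where 1 was higher in each. Of 4 tested secondary cell genes, 3 fell in Yki*+Dp, 2 in YkiWT and 4 in Myc+E2f/Dp. With TPM as deposited these counts were 1, 2 and 3. Over all tested genes, 1481 fell in Yki*+Dp, 265 in YkiWT and 2359 in Myc+E2f/Dp after scaling. Marker RNA of blood cells, which express several of the genes above, was highest in Yki*+Dp. The 5 markers summed to 8.09 to 11.3 TPM in control, 9.0 to 10.6 in YkiWT, 16.7 to 19.7 for Yki*+Dp, 9.01 to 13.2 for Myc+E2f/Dp. After scaling, the sums of Yki*+Dp, 16.5 to 18.2, lay above all control sums. Those of Myc+E2f/Dp, 6.99 to 8.87, lay below all control sums, and those of YkiWT, 11.3 to 12.7, lay inside the control range. Of these markers 3 were tested: 2 rose in Yki*+Dp, 1 rose in YkiWT and 1 fell in Myc+E2f/Dp. With TPM as deposited 3 rose in Yki*+Dp, 1 in YkiWT and 1 in Myc+E2f/Dp, and 0 fell. In YkiWT 1 was lower at limma's unadjusted p below 0.05. Against Yki*+Dp all 3 were lower in Myc+E2f/Dp, or 1 with TPM as deposited. NimC1 rose by 0.44 in Yki*+Dp and 0.57 in YkiWT, and srp rose by 0.44 in Yki*+Dp and fell by 0.60 in Myc+E2f/Dp. Muscle genes were lower in Myc+E2f/Dp: all 5 fell after scaling, with sums of 318 to 383 in control and 146 to 192 in Myc+E2f/Dp. The deposited sums overlap (234 to 302 and 188 to 297 TPM), and 2 fell with TPM as deposited. In Yki*+Dp the muscle sums lay above control, at 395 to 432 scaled and 404 to 465 TPM as deposited. There 2 of the 5 rose, or 4 with TPM as deposited. In YkiWT 0 passed under either, with sums of 369 to 428 scaled and 308 to 370 TPM as deposited. The part of these cells in the results for the 10 genes was not tested.

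Of the other cell types, fat body markers summed to at most 0.661 TPM and tracheal markers to at most 2.0 TPM in any library, and neuronal markers to 7.11 to 13.9 TPM. Testis markers summed to 1.61 to 19.2 TPM, and bam and nos were listed at 0 in all control libraries. The germline gene vas was at 0.941 TPM in YkiWT replicate 3, at 0.577, 0.673 and 0.838 TPM in Myc+E2f/Dp, and at no more than 0.0954 TPM elsewhere. Of the ejaculatory duct markers only Dup99B was matched, at 146 to 919 TPM. After scaling it fell in Myc+E2f/Dp (log2 fold change -1.34), but with TPM as deposited (-0.52) it did not pass. In Yki*+Dp (-0.78) and YkiWT (0.53) it did not pass. Without YkiWT replicate 3 both members called or risen in YkiWT, Mmp1 and Jra, still passed.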

How the data were processed

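RNA was measured in 12 libraries of male accessory glands, 3 per genotype, grouped by the genotype and replicate number of the labels. The authors selected poly-A RNA, made stranded libraries and deposited TPM per transcript and per gene; the submitters' processing notes name cutadapt 1.18, kallisto, sleuth and BDGP6, and the paper names Ensembl BDGP6.28. Gene values equal summed transcript values within 3.64e-12 TPM. The files hold no counts, so the authors' sleuth test was replaced by limma 3.58.1 (R 4.3.3).

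From the deposited TPM, log2(TPM x factor + 1) was computed, with a median-of-ratios factor over the 6633 genes of at least 1 TPM in all libraries. The test took features that reached 1 TPM in at least 3 libraries (8128 genes and 13045 transcripts), in a single model of the 4 genotypes with eBayes trend, with Benjamini-Hochberg adjustment over all features tested. Usage was tested with limma's diffSplice over the 3032 genes with 2 or more tested transcripts. The scripts were tested on simulated data first. Alternatives were other scalings, pseudocounts, filters and fits, a replicate block and each library left out. Coordinates come from the Ensembl BDGP6.54 annotation, which matched all 36 transcripts. Jra-RA and Jra-RC hold identical values in every library. Figures used matplotlib 3.10.9 (Python 3.11.15).

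The members and the lists were chosen with earlier results of these data known. All members are named, with the listed pathway genes called in at least 1 comparison with control, a few of the more abundant others, and the 3 genes most like puc, Mmp1 and Ets21C. A planned motif search in promoters was not run.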

Additional observations from a re-analysis of the deposited data

How the results depend on the processing

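With TPM as deposited, the contrast of Myc+E2f/Dp with Yki*+Dp changed sign for grnd (0.079), bsk (0.36) and Jra (0.0664), and that of Yki*+Dp with control for wgn (0.0734). With 75th percentile scaling bsk changed sign in the former (0.10). Leaving out single libraries moved values near 0 across it: Myc+E2f/Dp against Yki*+Dp ran from -0.0903 to 0.0144 for bsk, from -0.19 to 0.26 for Mmp1 and from -0.14 to 0.21 for Mmp1-RC, YkiWT against control from -0.0309 to 0.0595 for kay-RA, and Yki*+Dp against YkiWT from -0.0116 to 0.51 for Mmp1-RD.

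Called members in Yki*+Dp numbered 1, but 5 with TPM as deposited, 4 with a pseudocount of 0.1 or 0.5, and 1 to 4 with single libraries left out. Passing members in YkiWT numbered 2, but 1 with TPM as deposited, 4 in a fit of that pair of genotypes alone, and 1 to 3 with libraries left out. In Myc+E2f/Dp a filter at 5 TPM, which removes low members from the test, left 5 passing and 3 called. Myc+E2f/Dp against Yki*+Dp had 5 passing members, 3 with that filter, 3 in a fit of the pair alone and 3 to 5 with libraries left out; none was called, against 1 with TPM as deposited, 1 with 75th percentile scaling, 2 and 1 with pseudocounts of 0.1 and 0.5, and 0 to 1 with libraries left out. Yki*+Dp against YkiWT had 2 to 5 passing members with libraries left out.

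Transcripts passing in YkiWT numbered 2, but 1 with TPM as deposited, 5 and 4 with pseudocounts of 0.1 and 0.5, and 1 to 4 with libraries left out. Transcripts with changed usage numbered 1 in each of Yki*+Dp, Myc+E2f/Dp and Myc+E2f/Dp against Yki*+Dp with TPM as deposited, and 0 in Yki*+Dp against YkiWT. Both lower pseudocounts also gave 1 in Myc+E2f/Dp against Yki*+Dp, and 2 and 1 in YkiWT. With libraries left out the counts ran from 0 to 2 in YkiWT, 2 to 4 in Myc+E2f/Dp, 0 to 2 in Myc+E2f/Dp against Yki*+Dp, and 0 to 1 in Yki*+Dp against YkiWT. Usage and pathway genes were added to the alternatives after the data were seen. Pathway genes passing in Yki*+Dp rose from 26 to 41 with TPM as deposited, in Yki*+Dp against YkiWT from 19 to 31, and in YkiWT they ranged from 1 to 7. The cause of these changes was not tested.

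Replicate numbers are shared between genotypes in the labels. Deviations of same-numbered libraries correlated at -0.31 to 0.51, above 0.1 in 9 of 18 pairs. Those of differently numbered libraries correlated at -0.38 to 0.37, above 0.1 in 11 of 36 pairs. Whether the numbers pair the libraries was not tested. With the replicate block 6, 2, 8 and 5 members passed in Yki*+Dp, YkiWT, Myc+E2f/Dp and Myc+E2f/Dp against Yki*+Dp, as without it, and 5 in place of 4 in Yki*+Dp against YkiWT, where wgn was added (-0.29, adjusted p = 0.044). With the block Thor in Yki*+Dp (adjusted p = 0.0544), Timp in YkiWT (0.0581) and Mmp1-RD usage in Myc+E2f/Dp (0.0569) no longer passed. It moved no other result across the threshold, against control or between genotypes, among the genes and transcripts run. Depth is unknown, so the precision of low values such as those of egr and Mmp2 cannot be stated from counts.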
